A study of Mus musculus with 8 samples.

Results

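The genes described here are those of the proteasome, the barrel-shaped protease that degrades ubiquitin-tagged proteins. They were taken by symbol, as Psma, Psmb, Psmc, Psmd, Psme, Psmf or Psmg followed directly by a digit. Of 52459 genes in the file, 54 had such a symbol, and the 48 whose mean over the 8 libraries reached 10 normalized counts are the members. They comprise 14 subunits of the 20S core, 17 of the 19S regulatory particle, 5 immune subunits and 12 others, of which 7 are assembly chaperones, 3 are other activators or an inhibitor and 2 could not be placed. The 6 symbols left out for a low mean were Psma8, the thymic subunit Psmb11 and 4 pseudogenes. The members nearest to the minimum were Psmg3, with a mean of 67.2 over the libraries, and Psmg4, with 84.5, and the highest means left out were those of Psmb11 (4.05) and Psma8 (3.96). All 48 members are among the 15419 genes that were tested, because the same minimum was used for both.

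RNA of mouse regulatory T (Treg) cells, which restrain immune responses and are defined by the transcription factor Foxp3, was sequenced in 8 libraries of strain C57BL/6, 2 in each of 4 groups. The groups combine a genotype, labelled WT or deficient (floxed alleles written Stim1 fl/f and Stim2 fl/fll, with Foxp3-YFPcre), with a state, either unstimulated or after 16 h on plates coated with 1 µg/ml anti-CD3/CD28 antibodies. Stim1 and Stim2 are the endoplasmic reticulum sensors that open the store-operated calcium channel, and the study asked what their loss does to Treg cells. According to the methods, YFP-negative (WT) and YFP-positive (deficient) CD4+CD25hi cells were sorted from spleen and lymph nodes of heterozygous female mice, with several animals pooled per sample and cre driven by the Foxp3 promoter, so that both kinds of cells carry the floxed alleles and genotype is bound to expression of the YFPcre allele. Ages are not given in the sources used here. Unstimulated libraries were read in one sequencing lane and stimulated libraries in another, so stimulation cannot be told apart from lane, whereas both genotypes lie within each lane. Replicates are numbered 3 and 4 in unstimulated WT cells and 1 and 2 in every other group. The p-values measure the spread between these pooled samples. In bulk RNA, fewer cells of one type and less RNA per cell cannot be told apart.

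Each library held 11851853 to 16306540 reads on genes, and the deposited values, called normalized counts, are these reads after division by a factor for each library. One read equalled 0.759 to 1.48 normalized counts. The deleted genes were checked first. In unstimulated cells Stim1 stood at 1139 and 1377 in WT and 1538 and 1868 in the libraries labelled deficient, and after stimulation 645 and 673 against 552 and 642. Stim2 had 906 and 908 against 904 and 744 unstimulated, and 665 and 782 against 620.2 and 696 after stimulation. Neither gene was called between genotypes (limma adjusted p from 0.236 to 0.827), and counts per gene do not separate the deleted exons from the rest of the transcript. These counts therefore give no check of the deletion, and the libraries are called DKO-labelled below. Treg markers were present in all libraries. Foxp3 had 10001 and 8159 normalized counts in unstimulated WT and 4947 and 4258 in DKO-labelled libraries, and 8525 and 11918 against 4474 and 7253 after stimulation, so that both DKO-labelled libraries were below WT in either state (log2 fold change -0.98 and -0.82, limma adjusted p = 0.0591 and 0.177). Markers of macrophages stood out in the unstimulated DKO-labelled libraries, where the 10 genes of that list summed to 10135 in replicate 1 and 1597 in replicate 2 against 151 to 309.7 in the 6 other libraries. The 8 B cell markers summed to 3234 and 807 in these libraries against 166 to 1205 elsewhere.

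The proteasome consists of the 20S core, a stack of rings in which alpha subunits (Psma genes) form the gate and beta subunits (Psmb genes) the chamber, and the 19S particle, whose ATPases (Psmc genes) and lid subunits (Psmd genes) recognize, unfold and feed in the substrate. Only the beta subunits encoded by Psmb5, Psmb6 and Psmb7 cleave peptides, and interferons induce Psmb8, Psmb9 and Psmb10, which take their places in newly assembled particles to form the immunoproteasome. Psme1 and Psme2 encode the PA28 cap, which is induced by interferon as well and favours the release of peptides for presentation on MHC class I.

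Promoters are shown for 4 members, taken for their classes from among members with a match to a searched motif. The immune members Psme2 and Psmb10 had no match and are not shown. Psmb8 and Psme1 are immune subunits, Psmb5 is the constitutive counterpart of Psmb8, and Psma1 is a core subunit that differed between genotypes in unstimulated cells. The sequences are from RefSeq on GRCm38.p6, matched by symbol, and span 250 bases before and 50 bases after the start of the gene on its own strand. Capitals mark a match, on either strand, to TTCNNNGAA (a STAT element) in Psmb8, to GAAANNGAA (the centre of an interferon-stimulated response element) in Psme1, to TGACNNNGC (an antioxidant response element) in Psmb5 and to CCAAT (an NF-Y box) in Psma1. Psmb8 lies on chr17:34197945-34198244 (plus strand), Psme1 on chr14:55578244-55578543 (plus strand), Psmb5 on chr14:54617946-54618245 (minus strand) and Psma1 on chr7:114276067-114276366 (minus strand).
Psmb8: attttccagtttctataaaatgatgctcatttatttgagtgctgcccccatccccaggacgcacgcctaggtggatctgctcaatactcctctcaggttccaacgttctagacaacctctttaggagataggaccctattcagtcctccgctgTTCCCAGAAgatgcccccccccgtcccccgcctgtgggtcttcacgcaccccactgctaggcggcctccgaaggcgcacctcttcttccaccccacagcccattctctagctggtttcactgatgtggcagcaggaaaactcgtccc
Psme1: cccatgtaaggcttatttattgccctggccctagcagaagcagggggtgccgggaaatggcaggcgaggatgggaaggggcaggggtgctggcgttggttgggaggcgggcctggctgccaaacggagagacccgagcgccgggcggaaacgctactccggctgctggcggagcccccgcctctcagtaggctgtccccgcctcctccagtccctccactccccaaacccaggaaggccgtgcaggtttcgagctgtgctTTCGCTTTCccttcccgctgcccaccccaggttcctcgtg
Psmb5: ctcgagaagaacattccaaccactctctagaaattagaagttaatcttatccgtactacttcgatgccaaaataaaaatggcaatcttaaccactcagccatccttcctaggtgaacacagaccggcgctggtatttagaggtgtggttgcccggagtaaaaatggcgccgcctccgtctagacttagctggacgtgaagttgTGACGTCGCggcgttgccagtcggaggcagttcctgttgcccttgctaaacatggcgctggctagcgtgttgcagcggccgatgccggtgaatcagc
Psma1: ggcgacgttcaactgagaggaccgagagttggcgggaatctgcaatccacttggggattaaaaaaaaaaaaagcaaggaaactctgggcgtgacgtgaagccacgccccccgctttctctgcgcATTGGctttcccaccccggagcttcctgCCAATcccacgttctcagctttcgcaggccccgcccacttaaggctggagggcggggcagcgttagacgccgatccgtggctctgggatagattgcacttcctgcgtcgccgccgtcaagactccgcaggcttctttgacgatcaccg

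A promoter was found for 41 of the 48 members, and for 9882 of the tested genes. The STAT element was in the promoter of 1 of 5 immune members (Psmb8), 1 of 14 regulatory members (Psmd2) and 1 of 11 others (Psmg1). It was in 0 of 11 core members and in 8.4% of tested genes. The interferon-stimulated response element was in 1 of 5 immune members (Psme1) and 2 of 11 core members (Psmb3 and Psmb4). It was also in 2 of 14 regulatory members (Psmc2 and Psmd4), 2 of 11 others (Psmd9 and Psmg4) and 8.97% of tested genes. The antioxidant response element, which Nrf1 and Nrf2 bind, was in 2 of 11 core members, both of them constitutive catalytic subunits (Psmb5 and Psmb6), in 2 of 14 regulatory members, in no immune member and in 17.1% of tested genes. The NF-Y box was in 6 of 11 core, 4 of 14 regulatory and 1 of 5 immune members against 42.7% of tested genes. A STAT element and an interferon-stimulated response element can share letters, and a match describes only these letters in this window.

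Unstimulated DKO-labelled cells held lower levels of most proteasome genes than unstimulated WT cells. Summed over the 48 members, the normalized counts were 41843 and 37238 in WT and 25930.4 and 30344 in DKO-labelled libraries. The log2 fold change of DKO-labelled over WT cells was below 0 for 45 of 48 members, with a median of -0.55, whereas 50.3% of all tested genes were below 0 and their median was -0.01. Among the 9147 genes with a mean of at least 100, 58.6% were below 0 and the median was -0.10, a shift in the same direction. Both DKO-labelled libraries lay below both WT libraries for 36 members, and this held for 27.1% of all tested genes. The opposite arrangement was found for 2 members, Psma3 and Psme2b, and for 26.5% of all tested genes.

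Of the 48 members, 5 passed the test, all of them lower (limma, adjusted p under 0.05 and more than 1.5-fold). This is 10.4% of the members, whereas 3.35% of all tested genes were called lower and 1.38% higher. With libraries scaled to equal totals or equal upper quartiles, the median of all tested genes moved to 0.11 and 0.15, the split of all calls from 517 lower and 213 higher to 353 and 241 or 332 and 286, and the members called lower to 2 and 1. No member was called higher by limma, edgeR or DESeq2, and 0 members were higher at an unadjusted limma p under 0.05 and more than 1.5-fold. The 5 were the alpha subunits Psma1, Psma5 and Psma6, the base subunit Psmd1 and the lid subunit Psmd14. The count was 2 with edgeR and 10 with DESeq2 on recovered reads, where 353 and 810 of all tested genes were called lower. In a fit to the 4 unstimulated libraries it was 0, with 255 of all tested genes called lower. Leaving out 1 library moved both the count of members and that of all tested genes, so the calls depend on the libraries kept. The core median log2 fold change between unstimulated genotypes then ran from -0.91 to -0.50. In the unstimulated DKO-labelled libraries macrophage and B cell markers were higher (8 of 10 and 2 of 8 called) and the markers of cycling cells lower (4 of 6 called). The sums of cycling markers were 33213 and 26841 in WT and 9787 and 4698 in DKO-labelled libraries. The part of all these markers in the result was not tested.

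Psma5, which encodes an alpha ring subunit, differed the most. Its normalized counts were 288 and 273 in WT and 104 and 144 in DKO-labelled cells, and the log2 fold change was -1.19 (SE 0.24, limma adjusted p = 0.0251). The groups did not overlap, and Psma5 was called in 9 of 10 other fits, which used another pseudocount, minimum mean, scaling or tool or only the 4 unstimulated libraries. Psma1, another alpha subunit, had 632 and 561 against 280.0 and 338, a log2 fold change of -0.95 (SE 0.20, limma adjusted p = 0.0305), and was called in 7 of 10 other fits. Psma6, a further alpha subunit, had 1145 and 1068 against 546 and 666, a log2 fold change of -0.87 (SE 0.22, limma adjusted p = 0.0487), and was called in 3 of 10 other fits. Relative to WT cells, DKO-labelled cells held 0.438 of the level of Psma5, 0.517 of that of Psma1 and 0.546 of that of Psma6.

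Psmd1 encodes the large scaffold of the 19S base and Psmd14 the deubiquitinase of the lid, which removes the ubiquitin chain from the substrate. For Psmd1 the normalized counts were 2721 and 2581 in WT and 1249 and 1701 in DKO-labelled cells, and the log2 fold change was -0.86 (SE 0.20, limma adjusted p = 0.0434). Psmd14 had 1726 and 1997 against 938 and 1199, a log2 fold change of -0.81 (SE 0.19, limma adjusted p = 0.0462). The libraries of the groups did not overlap for either gene. Psmd1 was called in 4 and Psmd14 in 3 of 10 other fits.

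By role, the largest median difference in unstimulated cells was that of the core. Of the 14 core members 13 were below 0 with a median log2 fold change of -0.70, and of the 17 regulatory members 17 were below 0 with a median of -0.55. The immune members had a median of -0.31, with 4 of 5 below 0, and the 12 others a median of -0.25. The immune median was -0.53 without WT replicate 4 and -0.08 without WT replicate 3. Differences between these medians were not tested.

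Among the 7 alpha subunits 6 were below 0, and Psma3 was the exception. Its normalized counts were 417 and 489 in WT and 525 and 644 in DKO-labelled cells, with a log2 fold change of 0.37 (SE 0.23, limma adjusted p = 0.379). Among the beta subunits without a catalytic site, the changes ran from -0.70 for Psmb1 to -0.27 for Psmb3. Psmb1 had 789.9 and 643 against 375 and 509, and Psmb3 had 183 and 154 against 139 and 139. Neither passed the test (limma adjusted p = 0.104 and 0.565), although the groups did not overlap for either gene.

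The 6 ATPases of the 19S base, which unfold the substrate, were all below 0, from -0.89 for Psmc5 to -0.25 for Psmc6. Psmc5 had 1379 and 1046 normalized counts in WT and 511 and 827 in DKO-labelled libraries (limma adjusted p = 0.0746). Psmc6 had 1303 and 1262 against 864 and 1349 (limma adjusted p = 0.586), so that DKO-labelled replicate 2 lay above both WT libraries. The ubiquitin receptor Psmd4 had the smallest difference in the non-ATPase base, with 606 and 418 against 364 and 479, a log2 fold change of -0.27. In the lid, all 8 members were below 0, and the smallest difference was that of Psmd3, with 335 and 247 against 229 and 275, a log2 fold change of -0.20.

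Of the other activators and the inhibitor, Psme3, which encodes the nuclear cap REG gamma, had 2032 and 1733 normalized counts in unstimulated WT and 1208 and 1254 in DKO-labelled cells, with a log2 fold change of -0.61 (adjusted p = 0.129, limma). Psme4, which encodes the cap PA200, had 2588 and 3339.9 against 2327 and 3533, a log2 fold change of -0.04. The 2 groups were apart for Psme3 and overlapped for Psme4. All 7 assembly chaperones were below 0, from -0.68 for Psmd10 (193 and 183 against 164 and 84.1) to -0.13 for Psmg4 (30.2 and 22.2 against 22.0 and 25.4), and none passed the test.

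**Figure D1:**
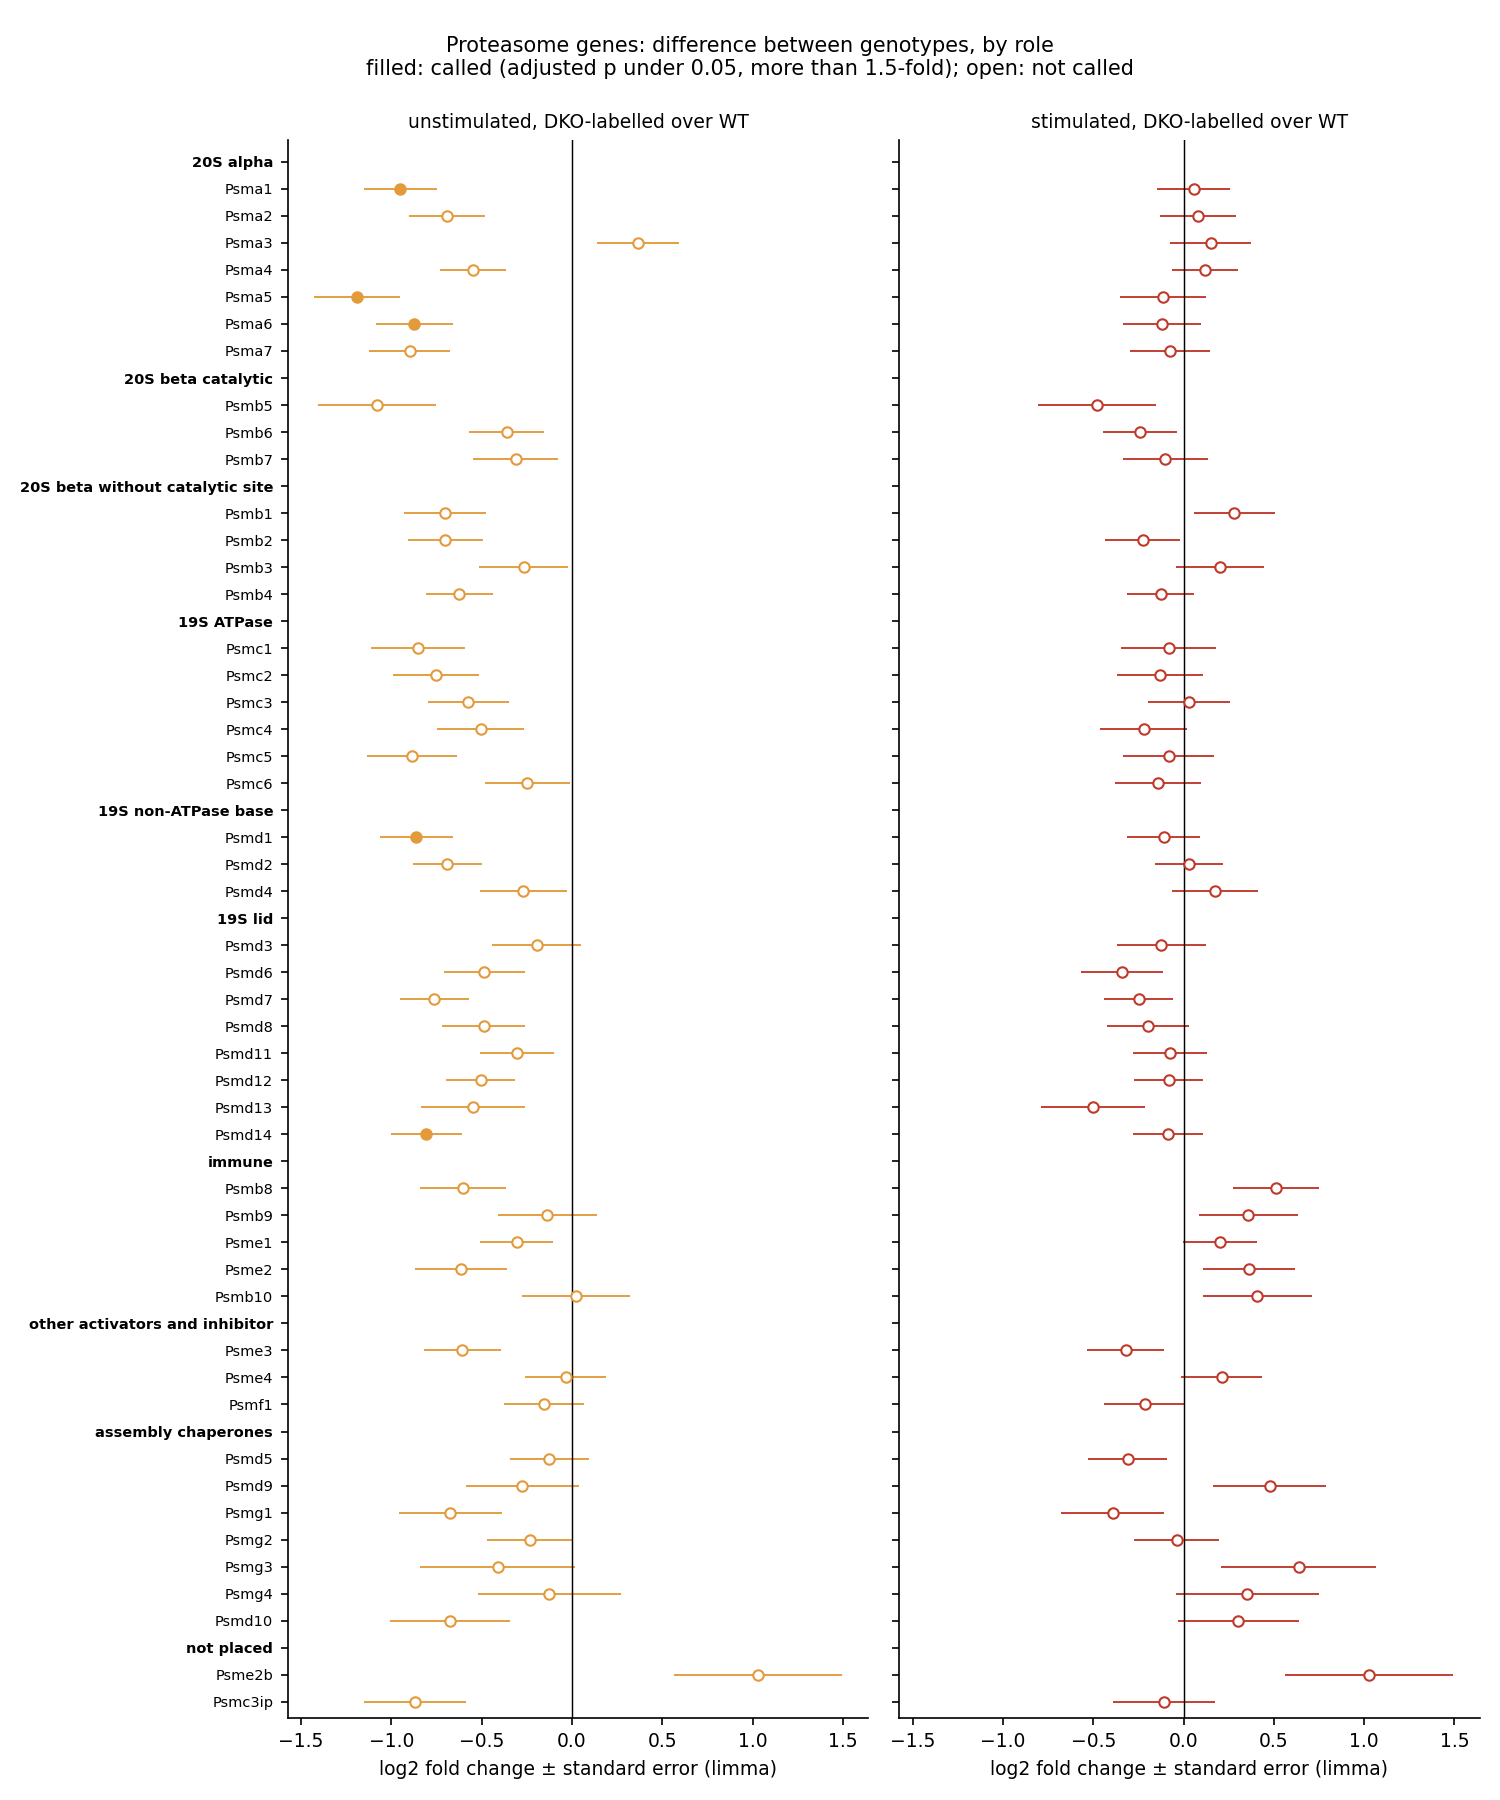
Log2 fold change of DKO-labelled over WT cells for each of the 48 members, by role, with standard errors from limma (2 libraries against 2), unstimulated on the left and stimulated on the right; filled points passed the test. In unstimulated cells 45 of 48 points lie left of 0 and 5 are filled, and in stimulated cells 28 lie left of 0 and 0 are filled.

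After stimulation, no member passed the test between genotypes. The 48 members summed to 58985 and 61193 normalized counts in WT and to 62838 and 58669.6 in DKO-labelled libraries, so that the groups overlapped. No member was called by limma, edgeR or DESeq2, none had an unadjusted limma p under 0.05, and 0.11% of all tested genes were called lower and 0.162% higher. The log2 fold change was below 0 for 28 members with a median of -0.08, compared with 48.5% of all tested genes. Both DKO-labelled libraries lay below both WT libraries for 11 members and above them for 12 (22.9% and 25% of members, against 23.1% and 24.3% of all tested genes). For 6 members both DKO-labelled libraries were below WT before and above WT after stimulation (12.5% of members, against 2.77% of all tested genes), and the reverse was found for 0 members and 2.6% of all tested genes. The median was -0.09 for core, -0.11 for regulatory and 0.36 for immune members.

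The members that had passed the test in unstimulated cells had log2 fold changes near 0 after stimulation. Psma1 had 1432 and 1267 normalized counts in WT and 1498 and 1308 in DKO-labelled libraries, a log2 fold change of 0.06 (SE 0.20). Psma5 had 666 and 664 against 644 and 587, a log2 fold change of -0.11 (SE 0.24), and Psma6 had 1604 and 1874 against 1879 and 1360.1, a log2 fold change of -0.12 (SE 0.22). In these alpha subunits no difference between genotypes was thus detected after stimulation, which does not show that the levels were equal. Psmd1 had 3265 and 3259.6 against 3423 and 2669 (log2 fold change -0.11), and Psmd14 had 2155 and 2176 against 2229.8 and 1871 (log2 fold change -0.08). The groups overlapped for Psma1, Psma6, Psmd1 and Psmd14, while both DKO-labelled libraries were below WT for Psma5.

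The immune subunits are given next in every library. Psmb8, the inducible counterpart of Psmb5 with chymotrypsin-like activity, had 1918 and 1387 normalized counts in unstimulated WT and 1212 and 952 in unstimulated DKO-labelled libraries. After stimulation it had 2513 and 2975 in WT and 3288 and 4619 in DKO-labelled libraries. DKO-labelled cells were thus below WT cells before stimulation (log2 fold change -0.60, SE 0.24, limma adjusted p = 0.174) and above them after it (0.51, SE 0.24, limma adjusted p = 0.382), without overlap in either state.

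Psmb9, the inducible counterpart of Psmb6, had 471 and 362 normalized counts in unstimulated WT and 473 and 298 in DKO-labelled libraries, and 1288 and 1558 against 1537 and 2147 after stimulation. Psmb10, the inducible counterpart of Psmb7, had 423 and 335 against 528 and 276 unstimulated, and 667 and 683 against 804 and 1001 after stimulation. Both genes overlapped between genotypes in unstimulated cells, where DKO-labelled replicate 1 was the higher of the DKO-labelled pair. This library had the largest sums of both macrophage and B cell markers, and the part of these markers in the values was not tested. After stimulation the log2 fold change was 0.36 for Psmb9 (SE 0.28, limma adjusted p = 0.626), with groups that overlapped, and 0.41 for Psmb10 (SE 0.30, limma adjusted p = 0.608), with groups that did not.

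Psme1, which encodes the alpha subunit of PA28, had 1828 and 1339.8 normalized counts in unstimulated WT and 1386 and 1154 in DKO-labelled libraries, and 2471 and 2341 against 2576 and 2968 after stimulation. Psme2, which encodes the beta subunit of PA28, had 602 and 462 against 414 and 286 unstimulated, and 1778 and 2019 against 2047 and 2894 after stimulation. The log2 fold change of Psme2 between genotypes was -0.62 before (SE 0.26, limma adjusted p = 0.192) and 0.36 after stimulation (SE 0.26, limma adjusted p = 0.593). That of Psme1 was -0.31 and 0.20. The genotypes were apart in both states for Psme2. Whether its reads were divided with those of Psme2b was not tested. Summed over Psme2 and Psme2b, the counts were 888 and 700.2 against 1182 and 656 unstimulated, which overlapped, and the log2 fold change was 0.16 (SE 0.30, limma adjusted p = 0.804). The lower level of Psme2 in unstimulated DKO-labelled cells thus depends on counting the 2 genes apart, and is uncertain. After stimulation the sums were 1884 and 2206 against 2234 and 3339 (0.42, SE 0.30, limma adjusted p = 0.589).

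Summed over the 5 immune members, the counts were 5241 and 3886 in unstimulated WT, 4014 and 2966 in unstimulated DKO-labelled, 8717 and 9576 in stimulated WT and 10252 and 13629 in stimulated DKO-labelled libraries. After stimulation both DKO-labelled libraries were the highest of the 8, and replicate 2 exceeded replicate 1 in each of the 5 genes. Without DKO-labelled stimulated replicate 2, the median log2 fold change of the 5 genes between stimulated genotypes was 0.12, against 0.60 without replicate 1.

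The constitutive catalytic subunits are the counterparts of the inducible ones. Psmb5 had 105 and 97.5 normalized counts in unstimulated WT and 43.0 and 52.1 in DKO-labelled libraries, and 274 and 269.6 against 250.1 and 151 after stimulation. Psmb6 had 657 and 622 against 436 and 568, and then 987 and 1146 against 933 and 868. For both genes the DKO-labelled libraries were below WT in either state, with log2 fold changes of -1.08 and -0.48 for Psmb5 and of -0.36 and -0.24 for Psmb6, none of which passed the test (limma adjusted p from 0.0898 to 0.666). The stimulated difference of Psmb5 was -0.12 without DKO-labelled stimulated replicate 2 and -0.84 without replicate 1. That of Psmb6 was -0.13 without WT stimulated replicate 2, and its unstimulated difference was -0.17 without DKO-labelled replicate 1 and -0.55 without replicate 2. Psmb7 had 618 and 594 against 431 and 552 before and 761 and 587 against 708 and 548 after stimulation, with log2 fold changes of -0.31 and -0.10.

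**Figure D2:**
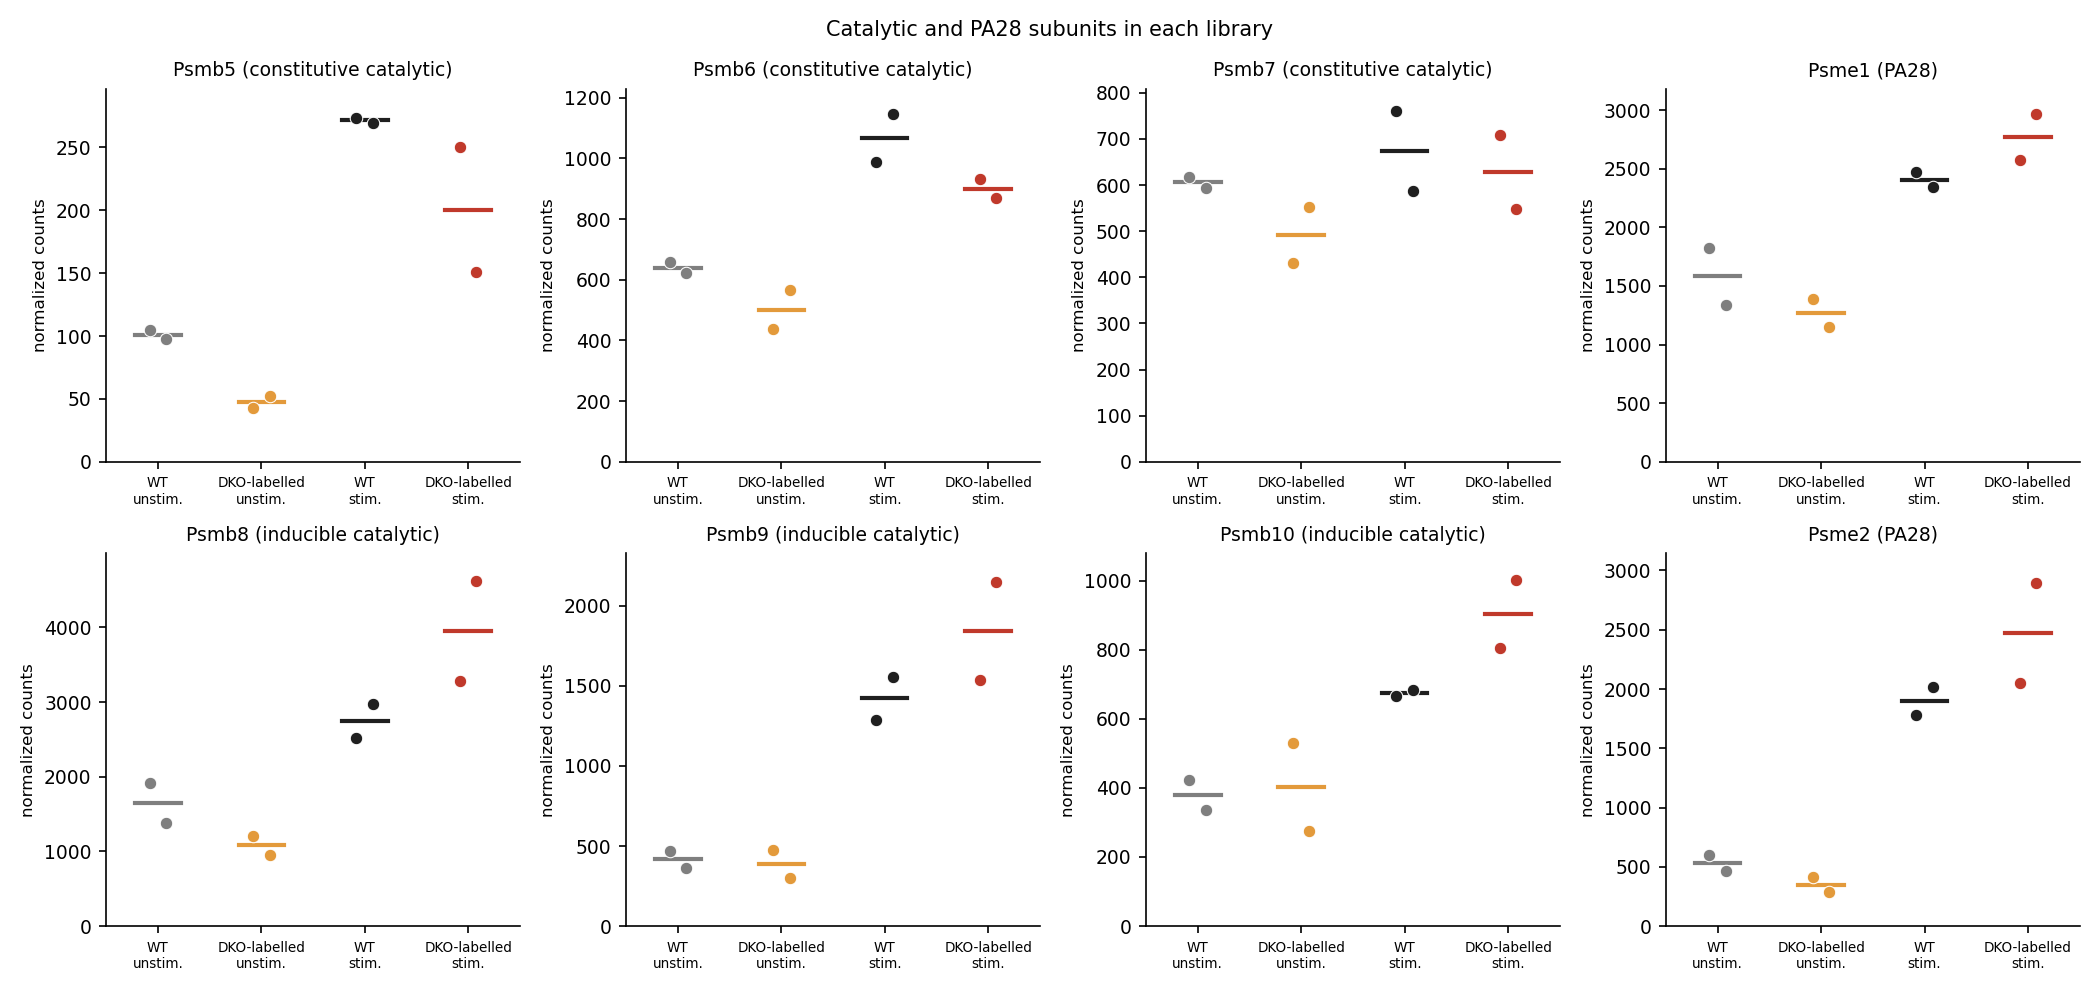
Normalized counts of the constitutive (Psmb5, Psmb6, Psmb7) and inducible (Psmb8, Psmb9, Psmb10) catalytic subunits and of PA28 (Psme1, Psme2) in the 4 groups; points are libraries, bars are means of 2, and each vertical axis starts at 0 with its own scale. In stimulated DKO-labelled cells the means of the 5 immune genes are the highest of the 4 groups, whereas those of Psmb5 (201) and Psmb6 (900.5) are below the stimulated WT means (272 and 1067).

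The inducible and the constitutive subunit of each pair were then compared within a library, where the scaling of the library cancels. The ratio of Psmb8 to Psmb5 counts was 18.3 and 14.2 in unstimulated WT, 28.2 and 18.3 in unstimulated DKO-labelled, 9.19 and 11.0 in stimulated WT and 13.1 and 30.6 in stimulated DKO-labelled libraries. The ratio of Psmb9 to Psmb6 counts was 0.72 and 0.58, 1.08 and 0.52, 1.30 and 1.36, and 1.65 and 2.47 in the same order. That of Psmb10 to Psmb7 was 0.68 and 0.56, 1.23 and 0.50, 0.88 and 1.16, and 1.13 and 1.83. These ratios are not per length, so that they compare libraries and not the abundance of the subunits.

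With stimulation the log2 ratio of Psmb9 to Psmb6 was higher by 1.23 over both genotypes, every stimulated library lying above every unstimulated one (two-sided exact permutation test within genotypes, p = 0.0556, the smallest that the design allows). Adjusted over the 12 tests of ratios, this p was 0.444. The difference was 0.79 for Psmb10 over Psmb7 (exact p = 0.111) and -0.42 for Psmb8 over Psmb5 (exact p = 0.333), so that the mean Psmb8 ratio was lower after stimulation. Between stimulated genotypes the log2 ratio was higher in DKO-labelled libraries by 0.99 for Psmb8 over Psmb5, 0.60 for Psmb9 over Psmb6 and 0.51 for Psmb10 over Psmb7. Without DKO-labelled stimulated replicate 2 these differences were 0.38, 0.31 and 0.17, and without replicate 1 they were 1.60, 0.89 and 0.85. The first 2 of these ratios had groups that did not overlap, at the smallest p that 2 libraries against 2 allow (exact p = 0.333). None of the 12 ratio tests passed after adjustment.

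**Figure D3:**
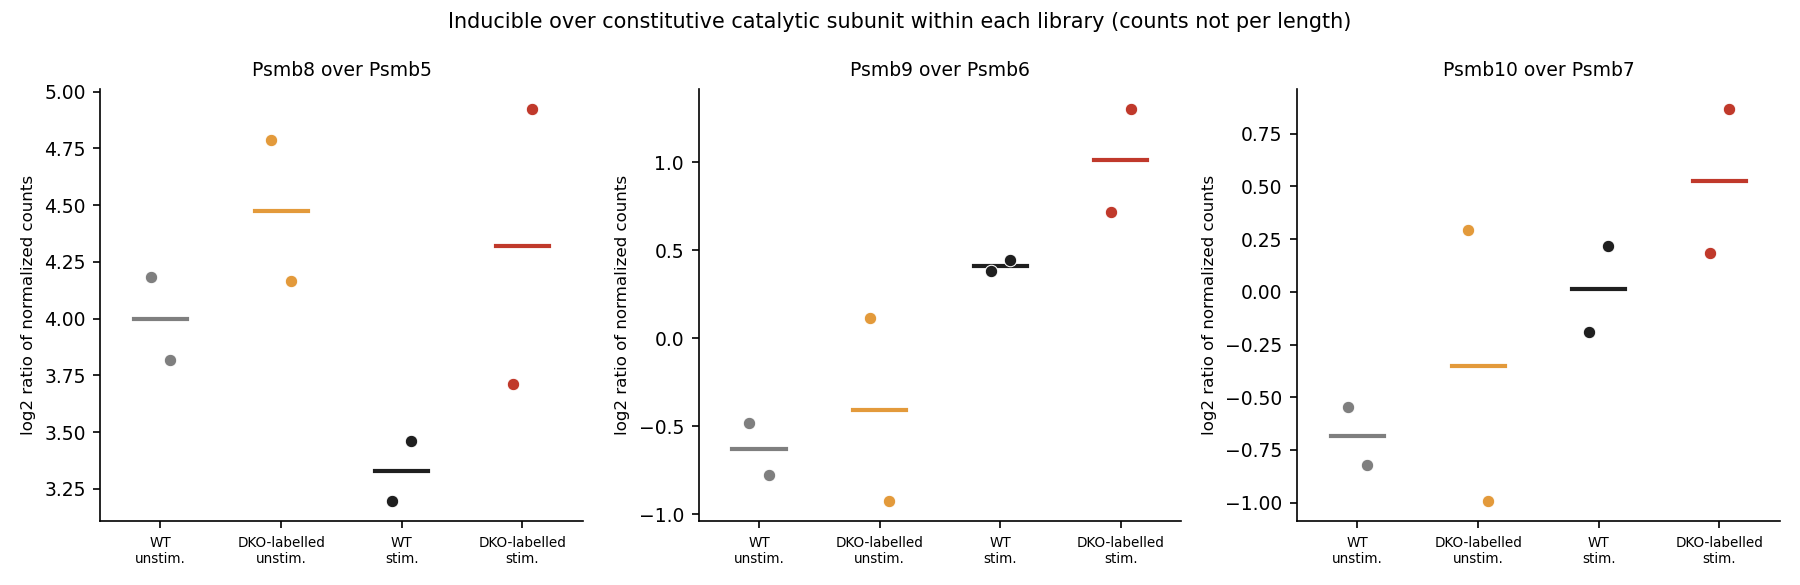
Log2 ratio of normalized counts of the inducible over the constitutive catalytic subunit within each library, by group; points are libraries, bars are means of 2, and the ratios are not per length. The stimulated DKO-labelled mean is above the stimulated WT mean in each panel, by 0.99, 0.60 and 0.51.

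Stimulation was accompanied by higher levels of proteasome genes in both genotypes. In WT cells 23 of 48 members were called higher and 0 lower (10.2% of all tested genes were called higher and 13.1% lower, limma), and the median log2 fold change of the members was 0.69 against 0.01 for all tested genes. In DKO-labelled cells 37 members were called higher and 0 lower (13% of all tested genes higher and 12% lower), with a median of 1.22 against -0.03. The 0 lower calls held for edgeR and DESeq2 as well. In the same comparison of DKO-labelled cells, 9 of 10 macrophage markers were called lower with stimulation, with a median of -5.60, and their summed counts went from 10135 and 1597 to 309.7 and 281. In WT cells 1 of the 10 was called lower, with a median of -0.86. The part of these markers in the result was not tested. Of the members called higher, 22 were called in both genotypes, 1 only in WT (Psmd5) and 15 only in DKO-labelled cells. The same shares of all tested genes were not computed. These calls come from a threshold applied to each genotype apart, so a call in a single genotype does not show a difference between genotypes. That difference, tested below as an interaction, passed for no member. With libraries scaled to equal totals the median of all tested genes moved to 0.52 in WT and 0.35 in DKO-labelled cells, and 42 and 43 members were called higher. The split of all calls in WT cells moved with it, from 2013 lower and 1580 higher to 974 and 4258, and in DKO-labelled cells from 1855 and 1997 to 1077 and 3791. The WT count was lower when 1 WT library was left out, and so was the count over all tested genes. The median log2 fold change of core members in WT cells then ran from 0.70 to 0.81.

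The assembly chaperones of the core were among the members with large differences with stimulation. Psmg4, a chaperone of the alpha ring, had 30.2 and 22.2 normalized counts in unstimulated and 101 and 156 in stimulated WT libraries, a log2 fold change of 2.23 (SE 0.39, limma adjusted p = 0.00434). In DKO-labelled libraries it had 22.0 and 25.4 and then 156 and 164 (2.71, SE 0.39, limma adjusted p = 0.00156). Its partner Psmg3 had 28.1 and 17.7 before and 106 and 74.4 after stimulation in WT (1.94) and 15.7 and 17.4 before and 129 and 149 after in DKO-labelled libraries (2.99). Psmg1 and Psmg2, which form another chaperone dimer, rose by log2 fold changes of 2.01 and 1.65 in WT and 2.29 and 1.85 in DKO-labelled cells. These 4 genes were called in both genotypes, whereas the base chaperone Psmd9 was not called, with -0.69 in WT and 0.06 in DKO-labelled cells.

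Of the immune subunits, Psmb8, Psmb9 and Psme2 passed the test in both genotypes. Psme2 rose by 1.84 in WT (SE 0.26, limma adjusted p = 0.0017) and by 2.82 in DKO-labelled cells (limma adjusted p = 0.000239) on the log2 scale, and the sum of Psme2 and Psme2b by 1.37 and 1.63 (limma adjusted p = 0.01 and 0.00421). Psmb9 rose by 1.78 and 2.27, and Psmb8 by 0.74 and 1.86. Psmb10 and Psme1 passed in DKO-labelled cells (1.23 and 1.13, limma adjusted p = 0.0149 and 0.00414), and in WT cells had 0.84 and 0.62 (limma adjusted p = 0.0669 and 0.0513).

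Among core members 9 of 14 were called higher in WT and 12 of 14 in DKO-labelled cells, with medians of 0.78 and 1.45. The steepest in WT was Psmb5 (1.42) and in DKO-labelled cells Psma5 (2.32), while Psma3 and Psmb7 passed in neither genotype. Among regulatory members 4 of 17 were called in WT (Psmc2, Psmd3, Psmd7 and Psmd8) and 13 of 17 in DKO-labelled cells, with medians of 0.55 and 0.97. The lid subunit Psmd7 had the largest difference of this class, 1.26 and 1.78. Psme3 passed in both genotypes (0.72 and 1.01), and neither Psme4 nor the inhibitor Psmf1, which encodes PI31, was called (from -0.11 to 0.18).

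**Figure D4:**
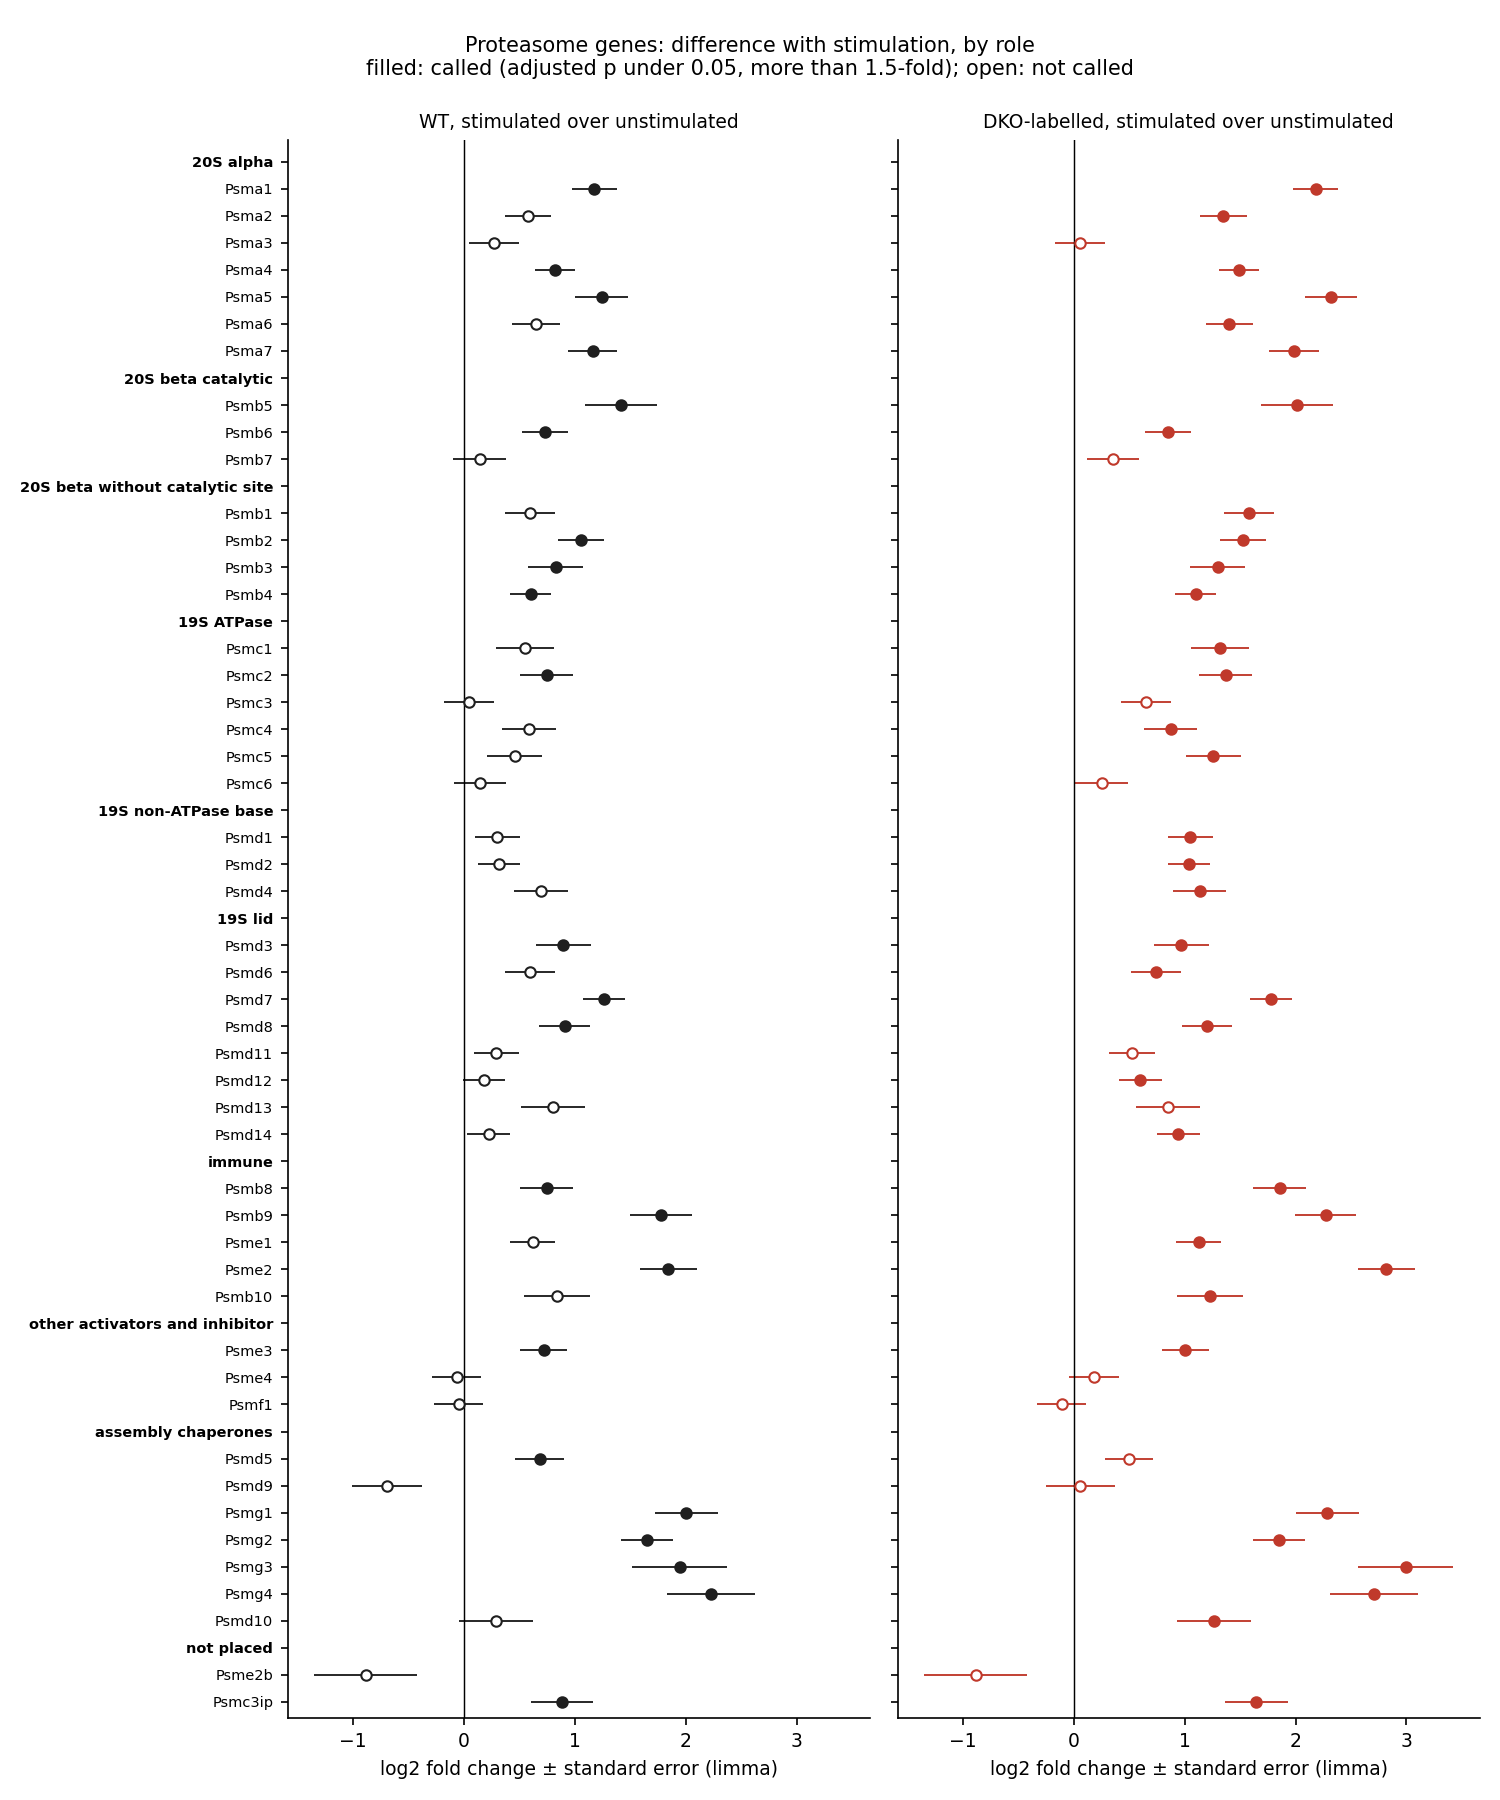
Log2 fold change of stimulated over unstimulated cells for each of the 48 members, by role, with standard errors from limma (2 libraries against 2), WT on the left and DKO-labelled on the right; filled points passed the test. In WT 23 points are filled and in DKO-labelled cells 37, all to the right of 0, and the assembly chaperones Psmg1 to Psmg4 and Psme2 lie far to the right in both.

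The difference between the responses of the genotypes was tested as an interaction. The interaction, which is the log2 fold change with stimulation in DKO-labelled cells minus that in WT cells, was above 0 for 45 of 48 members and below 0 for 3, with a median of 0.50, while 46.6% of all tested genes were below 0. Among the 9147 genes with a mean of at least 100, 38.1% were below 0 and the median was 0.13. The 45 include Psmd9, with -0.69 in WT and 0.06 in DKO-labelled cells, and Psme2b, which had nearly the same value in both. With an unadjusted limma p under 0.05 and more than 1.5-fold there were 13 members (27.1%), against 4.57% of all tested genes. None of them passed after adjustment (limma, 0% of all tested genes called in either direction), and none was called by edgeR or DESeq2. The largest interactions were those of Psmb8 (1.11, SE 0.34), Psma5 (1.08, SE 0.34), Psmg3 (1.05, SE 0.61) and Psma1 (1.01, SE 0.29), each with a limma adjusted p of 0.556 or, for Psmg3, 0.662. The interaction uses the same libraries as the genotype comparisons above. All 10 macrophage markers had interactions below 0, with a median of -4.77, and 8 of them had an unadjusted limma p under 0.05, and their part in the interaction of the members was not tested.

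**Figure D5:**
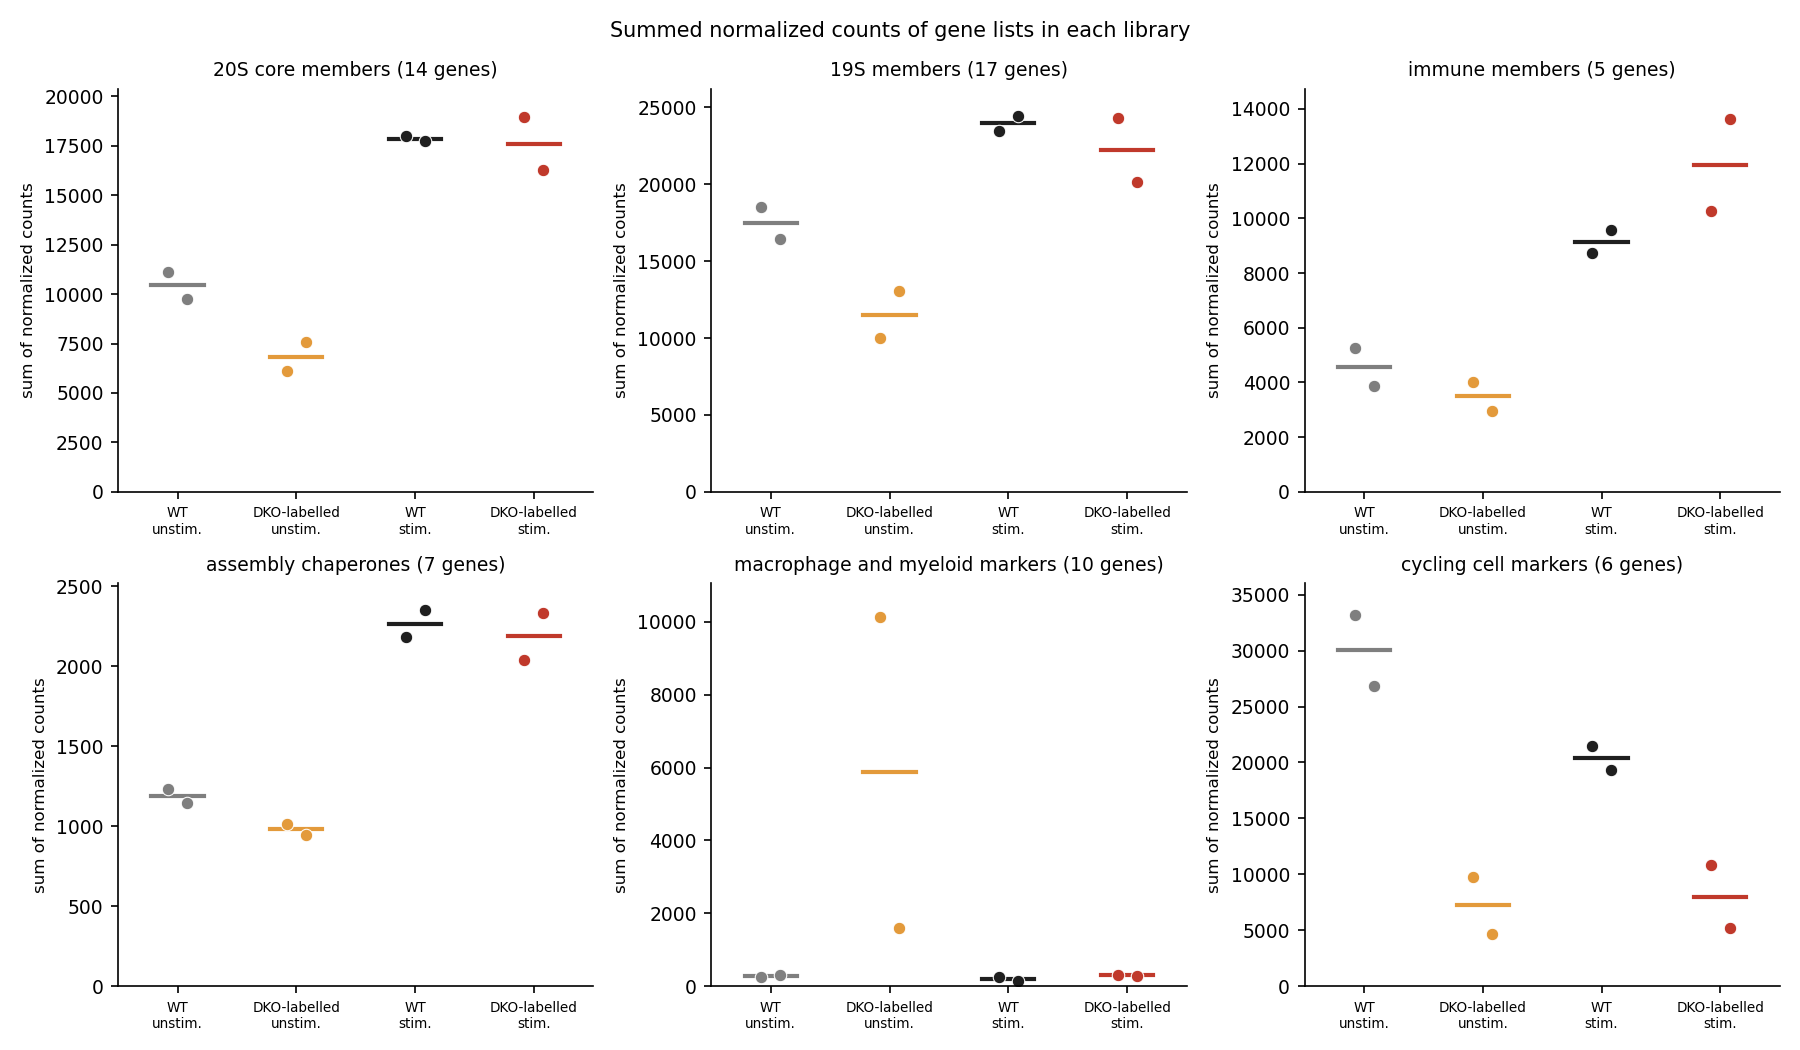
Summed normalized counts of 4 groups of members and of the macrophage and cycling cell markers in each library, by group; points are libraries, bars are means of 2, and every axis starts at 0. The core and 19S sums are lowest in the unstimulated DKO-labelled libraries, the immune sums are highest in the stimulated DKO-labelled libraries, and the macrophage sum is 10135 in one unstimulated DKO-labelled library.

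A pair of members was not placed among the subunits. Psmc3ip shares the symbol of an ATPase but encodes a recombination factor that binds it, and had 112 and 114 normalized counts in unstimulated WT and 58.7 and 64.1 in DKO-labelled libraries (log2 fold change -0.87, limma adjusted p = 0.108). Psme2b, on chr11:48945345-48946410 of GRCm38, has a symbol close to that of Psme2 on chr14:55587440-55591101. Their sequences were not compared here. According to the methods uniquely mapped reads were kept, but the processing notes name another aligner, so this may not hold for the deposited values. Whether reads were divided between the genes was not tested. The values of both genes are treated as uncertain. Psme2b had 286 and 238 in unstimulated WT and 768 and 369.9 in DKO-labelled libraries, and 106 and 187 against 187 and 445 after stimulation. Psme2b was thus the only member with a log2 fold change between genotypes above 0.5 in unstimulated cells (1.03, SE 0.47, limma adjusted p = 0.229), and its stimulation response in WT (-0.89) was opposite to that of Psme2. Neither of these 2 genes was among the 5 members called lower in unstimulated cells.

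Levels of different members were compared per kilobase of exon, as the mean of the 8 libraries over the length in GENCODE vM1, for the 47 members with a length. Psma6 had the highest level, 1027 normalized counts per kilobase, followed by Psmc5 (913) and Psme1 (909). Of the immune catalytic subunits Psmb8 stood at 862, Psmb10 at 464 and Psmb9 at 278, and of the constitutive ones Psmb7 at 494, Psmb6 at 415 and Psmb5 at 168. The lowest was the chaperone Psmd9 with 36.6. The order differed between the groups. Psma6 had the highest group mean in unstimulated WT (897) and stimulated WT cells (1409), Psme1 in unstimulated DKO-labelled cells (575), and Psmb8 in stimulated DKO-labelled cells (1445), followed there by Psme2 (1401) and Psma6 (1312). Psmb10 was below Psmb7 in stimulated WT (532 and 555) and above it in stimulated DKO-labelled cells (711 and 517). These orders were not tested. These lengths join all annotated exons, so that a gene with a long, rarely used exon is placed too low.

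The pathway around the proteasome was followed in lists chosen by function. Of 19 tested proteasome genes outside the symbol rule, which include remaining subunits, shuttle factors and regulators, 1 was called lower and 1 higher in unstimulated DKO-labelled cells. Over all tested genes 3.35% were called lower and 1.38% higher. Pomp, the maturation factor of the core, fell by 0.91 on the log2 scale (SE 0.19, limma adjusted p = 0.0287), from 1492 and 1249.7 normalized counts to 787 and 672. Nfe2l2, which encodes Nrf2, rose from 660.4 and 759 to 1206 and 1238 (0.79, SE 0.19, limma adjusted p = 0.0451). Nfe2l1, which encodes Nrf1, the factor that restores proteasome gene expression when the protease is inhibited, had 869.8 and 736 against 771 and 728 and was not called. After stimulation none of the 19 was called between genotypes, and Pomp had 2511 and 2463 in WT and 2317 and 1972 in DKO-labelled libraries.

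The list of class I presentation genes and their regulators held 13 genes. In unstimulated cells 1 was called, the chaperone Canx, with 11392 and 9454 normalized counts in WT and 6457 and 5429 in DKO-labelled libraries (log2 fold change -0.81, limma adjusted p = 0.0337). The share called lower among all tested genes was 3.35%. After stimulation none was called, while 12 of 13 were above 0 with a median of 0.48. Tap1, the peptide transporter gene adjacent to Psmb9, had 2850.2 and 2899.7 in WT and 3728 and 5073 in DKO-labelled libraries (0.60, limma adjusted p = 0.195). The transcriptional regulators Irf1 and Nlrc5 had log2 fold changes of 0.96 (limma adjusted p = 0.189) and 0.48 (limma adjusted p = 0.263), and the genotypes did not overlap for either.

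Of 15 interferon-stimulated genes, Ifi47 was called higher in unstimulated DKO-labelled cells (0.80, limma adjusted p = 0.0349), and 6 were called higher after stimulation, Ifit1, Ifit3, Oasl2, Rtp4, Gbp2 and Gbp4. Over all tested genes 1.38% were called higher in unstimulated cells and 0.162% after stimulation. The latter share is 25 genes, against 238 with DESeq2, 1 with edgeR and 1 in a fit to the 4 stimulated libraries. At most 1 of the 6 stimulated calls can therefore hold with edgeR or in that fit. Gbp2, which encodes a guanylate-binding protein, had 5504 and 6086 normalized counts in stimulated WT and 13422 and 19825 in stimulated DKO-labelled cells, with a log2 fold change of 1.49 (SE 0.21, limma adjusted p = 0.0392). Ifit3 had 12.5 and 12.2 against 139 and 209 (3.69, limma adjusted p = 0.0313). Over all 15 genes the log2 fold changes in stimulated cells ran from -0.07 (Rsad2) to 3.69 with a median of 1.39, and those of the 5 immune members ran from 0.20 to 0.51 with a median of 0.36. Bst2 (0.29) and Gbp7 (0.51) were close to the values of the immune members.

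The remaining lists describe the cells. Among all tested genes 3.35% were called lower and 1.38% higher in unstimulated cells, and 0.11% and 0.162% after stimulation. Of 7 Treg and T cell markers 2 were called lower in unstimulated DKO-labelled cells, Ctla4 (-1.79) and Ikzf2 (-1.13), and 0 after stimulation. Both of these stayed below WT after stimulation. Ctla4 then had 17476 and 21926 in WT and 9261 and 9849 in DKO-labelled libraries, and Ikzf2 had 18887 and 20751 against 9692 and 13079. Of 10 macrophage markers 8 were called higher in unstimulated cells, with C1qa and C1qc at 0 in both WT libraries, and 0 after stimulation, when Mrc1 was at 0 in all 4 libraries. Of 8 B cell markers 2 were called higher in unstimulated cells, Cr2 among them, and 0 after stimulation. Of 6 markers of cycling cells 4 were called lower in unstimulated cells (Mki67, Top2a, Ccnb1 and Mcm5) and 0 after stimulation. The stimulated sums of the 6 were still apart, with 21491 and 19299 in WT and 10829 and 5173 in DKO-labelled libraries. No gene of the ubiquitin, dendritic, CD8 T and NK, neutrophil or erythroid lists was called between genotypes.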

How the data were processed

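RNA of 8 libraries of sorted Treg cells was analysed, 2 per group. The signal values deposited by the authors are normalized counts, in which each library's reads per gene were divided by its own factor and rounded. The processing notes name bcl2fastq 1.8.4, STAR 2.7, DESeq2 and mm10, whereas the methods of the study name Bowtie, NCBIM37, Picard, HTSeq and DESeq2. Of 5131 Gm symbols numbered 30000 or higher in the file, 0 are in GENCODE vM1 (NCBIM37) and 723 in RefSeq GRCm38.p6, and positions here are those of GRCm38.p6, matched by symbol. The labels name a stranded library kit, the methods the TruSeq RNA v2 kit, and the strand setting of the counting is not given in the sources used here. Values were whole multiples of 1 read within 0.0051 normalized counts for 100% of the values in 7 libraries and for 99.998% in the other, and whole reads were recovered by division.

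Because the values are normalized, limma 3.58.1 in R 4.3.3 (eBayes, trend) was fitted to log2(value + 1) of the 15419 genes whose mean reached 10, in 1 model of the 4 groups without a replicate term. Tests were two-sided and p was adjusted after Benjamini and Hochberg over all genes within a contrast. Calls required more than 1.5-fold and an adjusted p under 0.05. A fold change on this scale understates that of low genes. Ratios within libraries were compared with exact permutation tests. Alternatives were pseudocounts of 0.1 and 5, other minimum means (any value above 0, or 100), quantile normalization, scaling to equal upper quartiles or totals, DESeq2 1.42.0 and edgeR 4.0.16 on recovered reads, fits restricted to 4 libraries, a replicate block, a 2-fold or unadjusted threshold, members without Psmc3ip and Psme2b, and leaving out each library. The sum of Psme2 and Psme2b was added after the data were seen. The fits were tested on simulated data. Where a library was left out, the lone library of its group was assumed to vary like the other groups.

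The members, roles, lists, motifs and tests were chosen with earlier results of these data known. Members named in full were the immune and constitutive catalytic subunits, PA28, the members called between genotypes and, for each role, those with the highest and lowest log2 fold change in unstimulated cells. Outside the members these were Tap1, Irf1, Nlrc5, Nfe2l1, Pomp and list genes called between genotypes, and some list genes are not reported here by name. Other members singled out for their response to stimulation, and Psmc3ip, Psme2b and the genes with the largest interaction, were chosen after their values were seen. Proteins were not analysed here.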

Additional observations from a re-analysis of the deposited data

Results flagged for a closer look

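In 6 members the DKO-labelled libraries lay below both WT libraries before stimulation and above both after it, so that the direction of the genotype difference was opposite in the 2 states. These are 12.5% of the members, and 2.77% of all tested genes had the same arrangement. The reverse arrangement was found for 0 members and for 2.6% of all tested genes. For Psmg3 the unstimulated libraries held 26 and 12 reads in WT and 15 and 13 in DKO-labelled cells, and the normalized counts of the nearest libraries of the 2 genotypes (17.7 and 17.4) differed by less than 1 read. For Psme2 it was absent when the counts of Psme2b were added. The difference between the stimulated and the unstimulated log2 fold change was 1.11 for Psmb8, 0.98 for Psme2, 0.98 for Psmb1, 0.47 for Psmb3, 0.98 for Psmd10 and 1.05 for Psmg3. None of these interactions passed the test (limma adjusted p from 0.556 to 0.733, 2 libraries per group), so a reversal was not shown for any single gene. The unadjusted limma p was lowest for Psmb8 (0.00785) and highest for Psmb3 (0.204). Psmb8 and Psme2 are immune subunits, Psmb1 and Psmb3 belong to the core, and Psmd10 and Psmg3 are assembly chaperones.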

How the results depend on the processing

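The members called lower in unstimulated DKO-labelled cells numbered 5, and 2 with a pseudocount of 0.1, 1 when every gene with a value above 0 was tested, 2 with equal totals, 1 with equal upper quartiles, 3 with quantile normalization, 2 with edgeR, 10 with DESeq2, 0 in a fit to 4 libraries, 1 at 2-fold, 21 at an unadjusted p, and from 0 to 15 when a library was left out. For all genes the unadjusted threshold gave 1705 lower. The members called higher with stimulation in WT cells numbered 23, and 15 with every gene, 42 with equal totals, 12 at 2-fold, and from 7 to 29 when a library was left out. The interaction gave 13 members at an unadjusted p and 0 otherwise.

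The median log2 fold change of core members in unstimulated cells, -0.70, was -0.53 with equal upper quartiles, -0.55 with quantile normalization and from -0.91 to -0.50 when a library was left out, and that of regulatory members from -0.76 to -0.42. In stimulated cells the core median ran from -0.18 to 0.11. With stimulation in WT cells the medians with equal totals were 1.30 (core), 1.07 (regulatory) and 1.36 (immune), and the core median was 0.93 with quantile normalization. In DKO-labelled cells they were 1.84, 1.36 and 2.25. The regulatory median in WT cells ran from 0.33 to 0.73 when a library was left out. The log2 ratio of Psmb8 to Psmb5 between stimulated genotypes ran from 0.38 to 1.60, and in unstimulated cells that of Psmb9 to Psmb6 ran from -0.30 to 0.75 and that of Psmb10 to Psmb7 from -0.31 to 0.98. Between unstimulated genotypes Psmb9 was 0.026 with equal upper quartiles and ran from -0.47 to 0.20 when a library was left out, and Psmb10 ran from -0.44 to 0.49. Between stimulated genotypes Psmb7 ran from -0.29 to 0.086, Psma1 from -0.043 to 0.15, Psma6 from -0.35 to 0.12, Psmd1 from -0.29 to 0.069 and Psmd14 from -0.21 to 0.042. With stimulation in WT cells Psmb7 ran from -0.046 to 0.33. With Psme2b added, a choice made after seeing the data, Psme2 between unstimulated genotypes was 0.16 in place of -0.62. Whether reads were divided between the 2 genes was not tested, and neither were the causes of the other shifts.

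Numbers are shared by replicates 1 and 2 in stimulated cells (r = 0.17 between deviations of WT and DKO-labelled libraries) and in DKO-labelled cells (r = 0.26), 2 pairs each, and were not taken to pair the samples. With a replicate block 0 members were called between stimulated genotypes and 39 with stimulation in DKO-labelled cells, against 0 and 37. No paired analysis was possible for unstimulated cells and for WT cells because those groups share no numbers.

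With 2 libraries per group, a difference that did not pass was not detectable here and not shown to be absent.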
